A study of Homo sapiens with 4 samples.

Results

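DNA repair genes were examined as a group of 39 protein-coding genes, taken by name from GENCODE release 44 out of 19970 protein-coding genes on chromosomes 1 to 22 and X. The list was divided into 6 pathways, namely damage checkpoint (4 genes), homologous recombination (10), Fanconi (9), mismatch repair (2), excision and single-strand break repair (9) and end joining (5). The rule names the genes and uses no measured value, but the list was drawn up with earlier results of these data known. For each gene, the positions of ZNF217 peaks were read at its promoters, defined as 1 kb on each side of any annotated transcription start site (TSS), and over the rest of its span.

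The peaks came from CUT&Tag, an assay in which an antibody brings a transposase to the chromatin-bound protein so that the DNA around it is cut, tagged and sequenced. ZNF217, a zinc-finger DNA-binding protein found in corepressor complexes and studied as an oncogene, was mapped in 2 untreated human leukemia lines. MV4-11 is a monocytic acute myeloid leukemia (AML) line with a KMT2A fusion, and U937 is a monocyte-like line with a PICALM fusion. Each line had 1 ZNF217 library beside 1 IgG library, and the IgG data were not used here. With 1 library per line there is no replicate error, so values of the lines stand side by side with no test, and the intervals given (exact Clopper-Pearson, 95%) cover counting error only. The peak files held positions without scores or read counts, so the depth behind a peak is unknown and width in base pairs is the only measure of size. The origin of the start coordinate (0 or 1) is not stated in the sources used here, which leaves 1 bp of uncertainty in each edge.

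Cells meet DNA damage with a set of dedicated pathways. The kinases ATM and ATR signal breaks and stalled replication forks, homologous recombination copies a broken end from the sister chromatid, and end joining ligates broken ends directly. The Fanconi pathway unhooks crosslinks between the strands, mismatch repair corrects replication errors, and the excision pathways remove damaged bases or stretches of one strand. Many of these genes are housekeeping genes with CpG-rich promoters, and blood-forming cells depend on the Fanconi pathway to the point that its inherited loss causes bone marrow failure.

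The sequences shown first are the promoters of RAD50, FANCF, XPA and ERCC3, the 4 members whose promoter was occupied in MV4-11 alone. They are followed by those of XRCC2 and RAD51D, whose peak edges were the most alike in the 2 lines. Both were picked among members with a RefSeq promoter window and no coding gene with its Ensembl canonical start within 1 kb on the other strand. Each run is 5′ to 3′ on the gene's strand, from RefSeq promoter windows on GRCh38.p14, and holds the longest stretch of the 250 bases before the start that lies in no annotated UTR. Capitals mark matches to CCAAT (bound by NF-Y), CCGGAAG (ETS factors), CGCANGCGC (NRF1) and TTTCCCGC or TTTGGCGC (E2F), searched on both strands.
RAD50 promoter, chr5:132556839-132556929, plus strand: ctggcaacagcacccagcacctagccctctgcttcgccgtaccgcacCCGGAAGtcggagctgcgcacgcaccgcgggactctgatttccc
FANCF promoter, chr11:22625824-22626073, minus strand: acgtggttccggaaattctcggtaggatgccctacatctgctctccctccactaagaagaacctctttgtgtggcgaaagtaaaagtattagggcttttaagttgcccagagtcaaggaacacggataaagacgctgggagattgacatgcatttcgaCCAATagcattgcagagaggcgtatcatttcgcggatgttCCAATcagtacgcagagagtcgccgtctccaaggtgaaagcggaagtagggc
XPA promoter, chr9:97697341-97697590, minus strand: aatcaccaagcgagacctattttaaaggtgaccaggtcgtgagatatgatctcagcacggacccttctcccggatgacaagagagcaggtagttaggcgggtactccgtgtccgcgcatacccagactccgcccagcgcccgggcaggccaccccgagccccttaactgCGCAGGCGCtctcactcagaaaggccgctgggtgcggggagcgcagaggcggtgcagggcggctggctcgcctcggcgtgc
ERCC3 promoter, chr2:127294167-127294394, minus strand: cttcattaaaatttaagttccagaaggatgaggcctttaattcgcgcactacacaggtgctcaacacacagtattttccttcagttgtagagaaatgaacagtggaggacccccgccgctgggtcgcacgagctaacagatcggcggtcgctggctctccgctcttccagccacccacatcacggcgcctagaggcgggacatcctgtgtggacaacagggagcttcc
XRCC2 promoter, chr7:152676194-152676391, minus strand: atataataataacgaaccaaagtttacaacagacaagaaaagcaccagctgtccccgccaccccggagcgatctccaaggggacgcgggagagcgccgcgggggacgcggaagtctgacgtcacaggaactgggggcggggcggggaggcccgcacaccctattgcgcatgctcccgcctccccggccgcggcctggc
RAD51D promoter, chr17:35119861-35120021, minus strand: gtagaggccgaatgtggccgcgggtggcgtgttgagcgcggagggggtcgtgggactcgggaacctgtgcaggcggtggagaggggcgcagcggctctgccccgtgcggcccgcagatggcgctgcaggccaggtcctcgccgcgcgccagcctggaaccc
The FANCF run held 2 CCAAT matches, the RAD50 run 1 ETS match and the XPA run 1 NRF1 match, while the runs of ERCC3, XRCC2 and RAD51D held none of these letters. The full RefSeq windows, 250 bases before to 50 after the start, held more in all but FANCF. There ERCC3 and RAD50 each had 2 ETS matches and RAD51D had 1. XPA had 2 NRF1 matches, and XRCC2 had 1 NRF1 and 1 E2F match. These are matches of letters and not measured sites.

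Away from the gene's own promoters, peaks present in both lines were found in few members. The middle 200 bases of the overlap are shown for 1 example, intron 2 of XRCC5.
XRCC5 intron 2, chr2:216114769-216114968, plus strand: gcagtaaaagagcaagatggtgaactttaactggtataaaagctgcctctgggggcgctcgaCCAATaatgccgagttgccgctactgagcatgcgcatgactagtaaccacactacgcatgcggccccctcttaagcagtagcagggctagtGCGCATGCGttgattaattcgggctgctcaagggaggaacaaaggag
The XRCC5 run held 10 CpG dinucleotides, 1 CCAAT match and 1 NRF1 match. It was the richest in CpG of the stretches read in the same way, among which the shared peaks of ERCC1, MSH6 and NBN were not included. Those of XRCC3 exon 10, XRCC3 intron 7, OGG1 (outside its canonical transcript) and XRCC1 intron 2 held 1, 2, 2 and 4 CpG. None of them had an NRF1 match, and only the OGG1 stretch had a CCAAT match.

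In the MV4-11 file 37635 peaks were listed, of 283 to 15119 bp and with a median of 621 bp, and in the U937 file 22521 peaks of 330 to 8776 bp with a median of 686 bp. A peak narrower than 330 bp could therefore appear in MV4-11 only. Of 8 blood and myeloid marker genes, 6 had a promoter peak in MV4-11 and 4 in U937, beside 59.0% and 50.5% of all protein-coding genes. Marker genes of other tissues had 0 of 6 in both lines. The intervals of the blood marker shares (34.9 to 96.8% and 15.7 to 84.3%) hold the background, so these counts do not identify the cells. PTPRC and LYZ, both expressed across myeloid cells, had none in either line, and a peak does not measure expression.

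ZNF217 was present at the promoters of nearly all the repair genes. In MV4-11 all 39 of 39 members had a promoter peak (100%, interval 91.0 to 100), where 59.0% of all protein-coding genes had one. In U937 it was 35 of 39 (89.7%, interval 75.8 to 97.1) beside 50.5% of all genes. Both lines had a peak at 35 members, beside 47.4% of all genes, and no member had a peak in U937 alone or in neither line. Members carried more annotated starts than other genes, with a median of 18 TSSs against 5 and 8762 bp of promoter window against 4629 bp. When only the start of the Ensembl canonical transcript was used, the count was 39 in MV4-11 and 34 in U937, beside 54.7% and 46.5% of all genes, and the member lost was LIG4.

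The counts by pathway differed by few genes. All 4 checkpoint genes, both mismatch genes and all 5 end-joining genes had a promoter peak in both lines. Homologous recombination genes had 10 of 10 in MV4-11 and 9 of 10 in U937, Fanconi genes 9 and 8 of 9, and excision genes 9 and 7 of 9. Over all protein-coding genes 59.0% had a peak in MV4-11 and 50.5% in U937. The intervals of the pathways overlap widely in the plot of shares, so an order of pathways was not detectable with groups of this size.

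**Figure D1:**
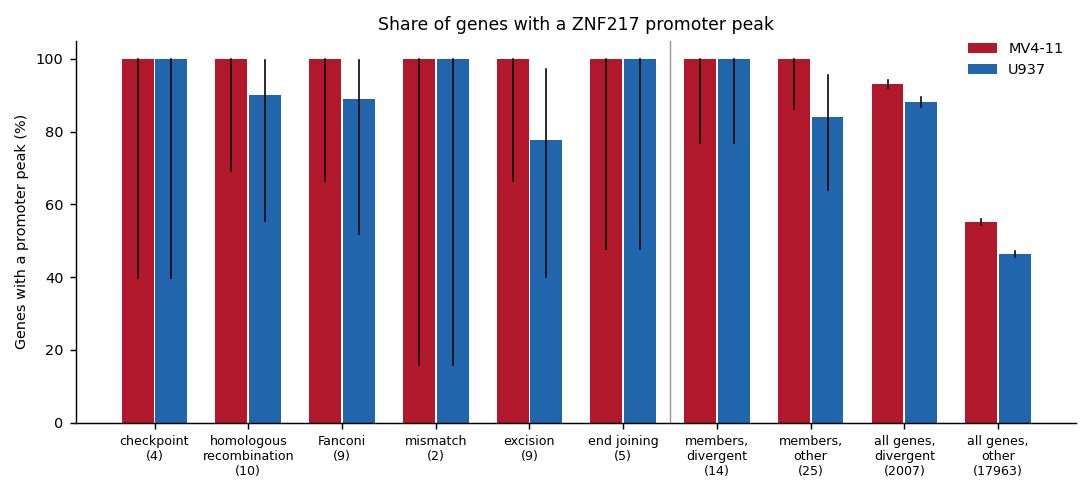
Percent of genes with a ZNF217 promoter peak (vertical axis) in MV4-11 (red) and U937 (blue) for the 6 pathways and, right of the grey line, for members and all protein-coding genes. Right of the line, genes are split into those with (divergent) or without (other) a canonical coding start within 1 kb on the other strand. The number of genes is in brackets and black lines are exact 95% intervals. Divergent members and divergent genes in general are both near the top, and members without such a neighbour, at 100% and 84.0%, sit above the 55.2% and 46.3% of other genes without one.

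Members often shared their promoter region with a second gene. By the start of the Ensembl canonical transcript of each gene, 14 of 39 members (35.9%) had a protein-coding gene starting within 1 kb on the other strand. The share over all protein-coding genes was 10.1%, counting neighbours on either side of the start. In all 14 members the neighbour lay upstream. Such neighbours were found at 2 of 4 checkpoint, 5 of 10 homologous recombination, 0 of 9 Fanconi, 1 of 2 mismatch, 3 of 9 excision and 3 of 5 end-joining genes. In both lines all 14 divergent members had a peak, as did 93.2% and 88.1% of all genes with such a neighbour. The 25 members without one had a peak in 25 cases in MV4-11 and in 21 in U937 (84.0%), beside 55.2% and 46.3% of all genes of that kind. The counting intervals were 76.8 to 100 in both lines for the divergent members, and 86.3 to 100 in MV4-11 and 63.9 to 95.5 in U937 for the others. These intervals are no test against the background, because the members were picked by name and carried more annotated starts. The 4 members without a U937 peak, RAD50, FANCF, XPA and ERCC3, were all in the second set. This holds for canonical starts only. An annotated start of IL5 lay within 1 kb of the RAD50 peak in MV4-11, and one of GAS2 within 1 kb of the FANCF peak.

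Promoter peaks of members had median widths slightly below those of all occupied genes. Within 1 kb of the canonical start, the median width over members was 995 bp in MV4-11 and 874.5 bp in U937, against 1069 and 965 bp over all occupied protein-coding genes. The peak covered the canonical start itself in 37 of 39 members in MV4-11 (94.9%) and in 31 of 34 in U937 (91.2%), beside 87.7% and 82.1% of all genes with a peak there. In MV4-11 the peak was the wider one at 25 of 34 members (73.5%, beside 64.5% of all genes), with a median MV4-11 to U937 ratio of 1.11, and the ratio over all genes was 1.13. Widths within 1.25-fold of each other were seen at 19 of 34 members (55.9%, beside 42.6% of all genes), and differences over 2-fold at 6 of 34 (17.6%, beside 18.1%).

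**Figure D2:**
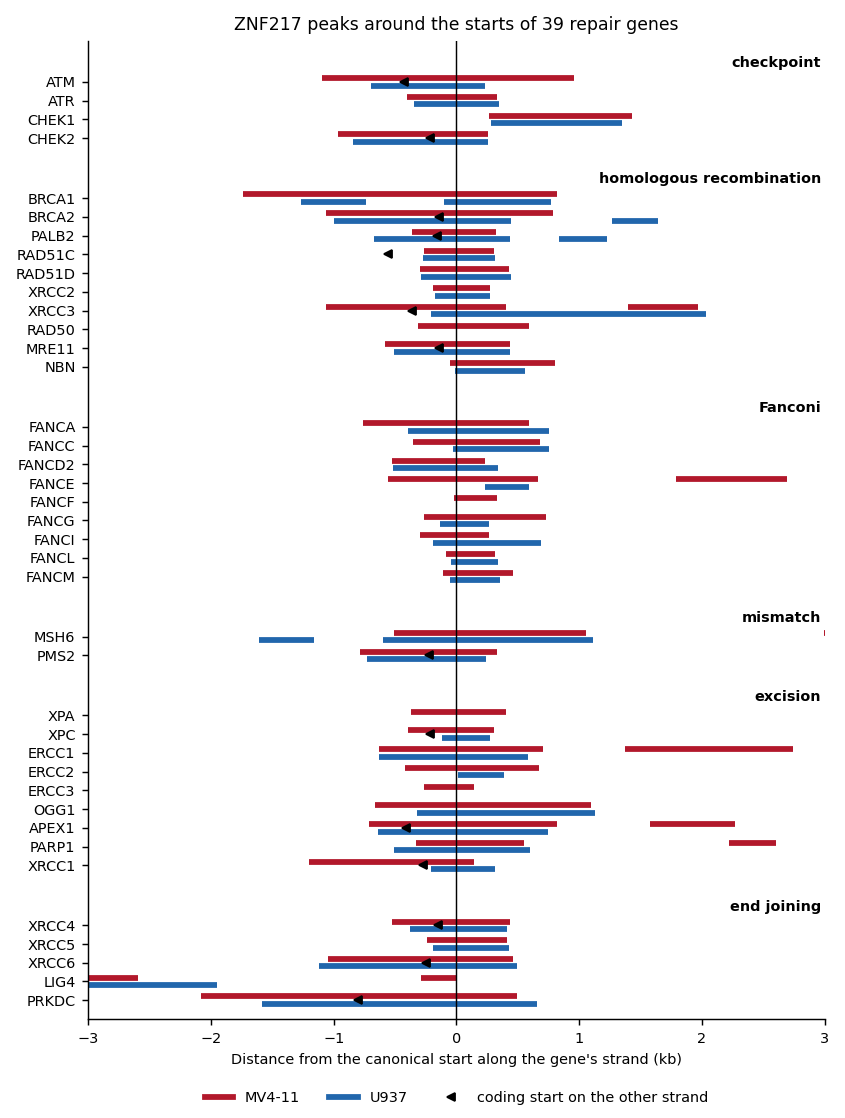
ZNF217 peaks of MV4-11 (red bars) and U937 (blue bars) around the canonical start of each of the 39 repair genes, by pathway. The horizontal axis is the distance from the start along the gene's strand in kb, cut at 3 kb on each side. Black triangles mark a canonical coding start on the other strand within 1 kb. Bars cross the start line in 37 members in MV4-11 and 31 in U937, CHEK1 peaks begin downstream of it, and RAD50, FANCF, XPA and ERCC3 have a red bar only.

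In members with a divergent neighbour the peak reached farther upstream. It covered the neighbour's start as well in 13 of 14 members in MV4-11 (not at RAD51C) and in 10 of 14 in U937 (not at RAD51C, XRCC3, XPC and XRCC1). The median upstream edge was at −877 bp from the canonical start in MV4-11 and −657 bp in U937, compared with −316 and −184 bp in the other members. Downstream edges were closer together, at medians of 417 and 421 bp with a divergent neighbour and 552 and 568.5 bp without. The widest promoter peak had medians of 1281.5 bp (MV4-11) and 1105.5 bp (U937) in the first group, and of 858 and 781 bp in the second. Over all protein-coding genes the same medians were 1286 and 1117 bp with a neighbour and 1049 and 947 bp without.

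Among the checkpoint genes, all 4 peaks were shared between the lines. ATM, the kinase that answers double-strand breaks, starts 429 bp from NPAT, a histone gene activator. Its peak spanned 2053 bp in MV4-11 (chr11:108221969-108224022) and 930 bp in U937, a ratio of 2.21, and the U937 peak lay wholly inside the MV4-11 peak. ATR, which answers stalled forks, had peaks of 735 and 688 bp with edges that differed by 11 and 58 bp. CHEK1, the kinase below ATR, was the exception in position, since its peaks of 1163 and 1068 bp began 263 and 282 bp downstream of the canonical start. They were centred within 2 bp of other annotated CHEK1 starts. CHEK2, the kinase below ATM, starts 219 bp from HSCB and had peaks of 1226 and 1102 bp that ended at the same base in the gene, chr22:28741561. Copies of CHEK2 exist as pseudogenes, as they do for PMS2 and FANCD2, so reads in their shared parts may be placed ambiguously.

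The homologous recombination genes ranged from 466 to 3272 bp in their widest promoter peak in MV4-11. BRCA1, which promotes resection of broken ends, had 1 peak of 2559 bp over its main start in MV4-11 (chr17:43124548-43127107), and U937 had 2 peaks of 868 and 524 bp inside the same interval. The start of the noncoding gene NBR2 lies 187 bp away on the other strand. A second promoter peak of BRCA1, 3272 bp wide in MV4-11 and 648 bp in U937, belonged to alternative starts, with midpoints at −45.3 and −45.9 kb, where NBR1 also starts. BRCA2, which loads the recombinase, starts 145 bp from ZAR1L and had peaks of 1849 and 1439 bp, plus a 375 bp peak in its intron 2 in U937 only. PALB2, the partner that joins BRCA1 to BRCA2, was wider in U937 (1109 bp) than in MV4-11 (690 bp) and had an additional 391 bp peak in U937.

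The recombinase paralogs included the most similar pairs. RAD51C had peaks of 576 and 586 bp, with edges that differed by 4 and 6 bp, and RAD51D had peaks of 724 and 732 bp, with edges that differed by 19 and 11 bp. At XRCC2 the peaks of 466 and 451 bp shared one edge exactly and differed by 15 bp at the other. XRCC3 differed most in placement. In U937 1 peak of 2240 bp ran from −209 to 2031 bp, and in MV4-11 a peak of 1466 bp from −1066 to 400 bp was joined by a second of 572 bp inside intron 1. Within the break-end complex, MRE11 (1015 and 944 bp, 140 bp from the start of ANKRD49) and NBN (858 and 568 bp) were occupied in both lines, and RAD50 in MV4-11 only.

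The 9 Fanconi members had the narrowest promoter peaks of the 6 member groups, with medians of 759 bp (MV4-11) and 595 bp (U937). This did not extend to 5 other occupied Fanconi genes, counted below, whose medians were 1423 bp in MV4-11, the widest among the 6 pathways of other repair genes, and 774 bp in U937. None of the 9 members had a divergent coding neighbour by canonical starts, and the part of this arrangement in their width was not tested. Annotated starts of SPIRE2, GAS2 and FKBP3 did lie within 1 kb of the start peaks of FANCA (MV4-11), FANCF (MV4-11) and FANCM (both lines). In the core complex, the peaks of FANCA were 1349 and 1142 bp wide and those of FANCC 1030 and 781 bp. FANCE had 1224 bp (MV4-11) and 357 bp (U937), a ratio of 3.43 and the largest at a member's start, and the U937 peak began 231 bp into the gene. FANCG had 995 and 399 bp, FANCL, the ubiquitin ligase of the pathway, 403 and 383 bp, and FANCM, which anchors the complex to DNA, 566 and 409 bp. The substrates of the ligase were the pair in which U937 had the wider peak, with 759 and 855 bp at FANCD2 and 558 and 881 bp at FANCI. FANCF had 346 bp in MV4-11 alone, and only 2.69% of the genes with an MV4-11 peak at the canonical start ranked below it.

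The mismatch repair pair was occupied alike in both lines. MSH6, which recognises mispaired bases, had peaks of 1558 and 1704 bp, and PMS2, whose protein nicks the new strand, starts 223 bp from AIMP2 and had peaks of 1121 and 965 bp. Both U937 to MV4-11 pairs were within 1.25-fold.

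**Figure D3:**
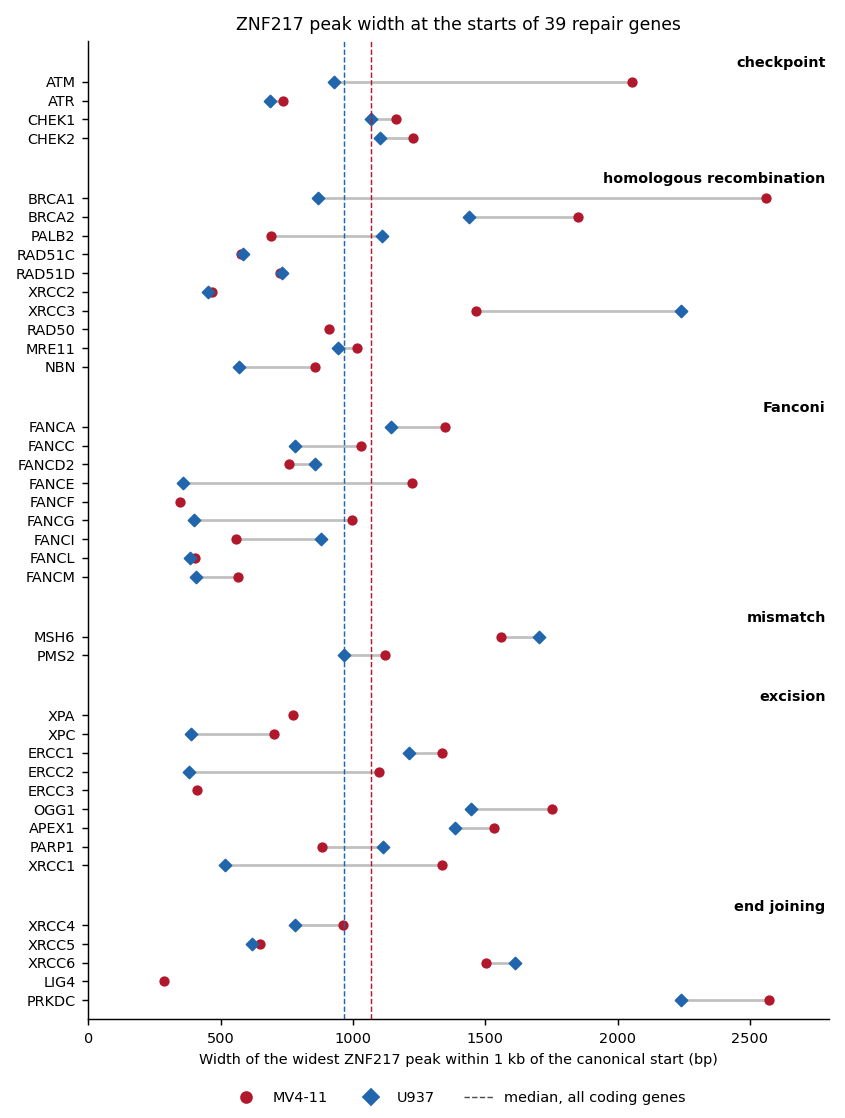
Width in bp (horizontal axis) of the widest ZNF217 peak within 1 kb of the canonical start for each repair gene in MV4-11 (red circles) and U937 (blue diamonds), with grey lines joining the lines' values and dashed lines at the medians of all occupied protein-coding genes (1069 and 965 bp). The Fanconi genes lie mostly left of the dashed lines, and the longest grey lines belong to BRCA1, ATM, FANCE, XRCC1, XRCC3 and ERCC2.

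The excision genes included 2 of the 4 members without a U937 peak. XPC, the damage sensor of nucleotide excision repair, was narrower in U937 (388 bp) than in MV4-11 (702 bp), and XPA, which verifies the lesion, had a peak of 775 bp in MV4-11 only. Of the helicases of the TFIIH complex, ERCC2 had 1097 and 382 bp and ERCC3 412 bp in MV4-11 only. ERCC1, part of the nuclease that cuts 5′ of the lesion, had peaks of 1335 and 1212 bp at its start, which ended at the same base on the upstream side. The base excision genes OGG1 (1753 and 1447 bp) and APEX1 (1534 and 1387 bp) had wide peaks in both lines, and PARP1, the sensor of strand breaks, had 883 and 1113 bp. At XRCC1, the scaffold for single-strand break repair, the start peak was 1337 bp in MV4-11 and reached 1198 bp upstream past the start of PINLYP, while in U937 it was 517 bp.

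The end-joining genes were occupied in both lines, with XRCC5 and XRCC6, which encode the Ku heterodimer that caps broken ends, at 649 and 617 bp and at 1503 and 1614 bp. XRCC4, the scaffold of the ligase, had 962 and 783 bp. PRKDC, the catalytic subunit of the DNA-dependent protein kinase, starts 805 bp from the replication gene MCM4 and had peaks of 2571 and 2238 bp, at percentiles 93.6 and 95.4 of all occupied genes. LIG4, the ligase itself, was the least typical. A peak of 528 bp (MV4-11) and 1656 bp (U937) stood at an alternative LIG4 start, with midpoints at −2.86 and −2.78 kb, where ABHD13 also starts. Next to the canonical LIG4 start, without covering it, only MV4-11 had a peak, of 285 bp. This is narrower than the U937 minimum of 330 bp, so a peak of that width could not appear in U937.

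Members with a peak in MV4-11 alone were then looked at in their surroundings. The MV4-11 peaks were chr5:132556661-132557571 at RAD50, chr11:22625497-22625843 at FANCF, chr9:97696938-97697713 at XPA and chr2:127294000-127294412 at ERCC3, and each covered the canonical start. By width they ranked at percentiles 38.99, 2.69, 29.0 and 5.76 of all genes with an MV4-11 peak at the canonical start, all below the median. The nearest U937 peak to RAD50 lay 60.4 kb away, within 1 kb of an annotated start of IRF1. That to XPA lay 63.3 kb away, by annotated starts of NCBP1 and TSTD2, and that to ERCC3 93.1 kb away, by one of MAP3K2. Each of these peaks was also present in MV4-11. FANCF lay in a stretch of chromosome 11 of 6.90 Mb without any U937 peak, which ranked 13 among 21714 gaps between U937 peaks by length. In the same stretch MV4-11 had 9 peaks, and 5 of its 15 protein-coding genes (CCDC34, FANCF, GAS2, LGR4 and SVIP) had an MV4-11 promoter peak. The FANCF peak lay within 1 kb of an annotated GAS2 start and so counts for both genes. Whether the stretch was covered by reads in U937, or present at normal copy number, was not tested.

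Peaks were then counted in place of genes. Members had 57 promoter peaks in MV4-11, of which 40 overlapped a U937 peak by at least 1 bp (70.2%, interval 56.6 to 81.6, beside 62.6% over all genes). In U937 there were 45, of which 41 overlapped an MV4-11 peak (91.1%, interval 78.8 to 97.5, beside 87.0%), so both backgrounds lie inside the intervals. Peaks within 1 kb of the canonical start were shared in 34 of 39 cases in MV4-11 (87.2%) and in 35 of 36 in U937 (97.2%), beside 75.0% and 92.0% of such peaks over all protein-coding genes. At alternative starts only, 6 of 18 (33.3%) and 6 of 9 (66.7%) were shared, beside 32.1% and 66.5%, and the split by start thus had the same direction over all genes.

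Outside the promoter windows of the same gene, members had 34 peaks in MV4-11 and 21 in U937. These peaks lay in 11 (28.2%) and 12 (30.8%) of the genes, beside 29.5% and 19.2% of all protein-coding genes. An annotated start of another gene was within 1 kb of 5 of them in MV4-11 and 4 in U937. Those genes were DECR1 (at NBN), KLC1 (at XRCC3) and FOSB (at ERCC1) in both lines, with CAMK1 (at OGG1) and ZNF276 (at FANCA) in MV4-11. Shared peaks made up 13 of 34 in MV4-11 (38.2%, interval 22.2 to 56.4, beside 27.1% over all genes). In U937 it was 13 of 21 (61.9%, interval 38.4 to 81.9, beside 54.0%). ERCC1 alone held 15 of the 34 and 7 of the 21. Its annotated span of 71.5 kb takes in transcripts that begin far upstream, and apart from 1 peak in each line they lay upstream of the main start, between −53.4 and −7.32 kb in MV4-11 and between −45.8 and −7.03 kb in U937. The immediate-early gene FOSB starts there, under an MV4-11 peak of 4149 bp. Without ERCC1, 19 MV4-11 peaks (7 shared) and 14 U937 peaks (6 shared) were left. Per 100 kb of annotated span outside the promoter windows, members had 1.43 peaks in MV4-11 and 0.883 in U937, ERCC1 included, beside 1.08 and 0.546 over all genes. Inside canonical transcripts members had 15 and 10 peaks, or 0.749 and 0.499 per 100 kb, and 0.701 and 0.451 without ERCC1. Over all protein-coding genes it was 1.02 and 0.516 per 100 kb. With ERCC1 included, members were thus below the background in MV4-11 and close to it in U937.

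**Figure D4:**
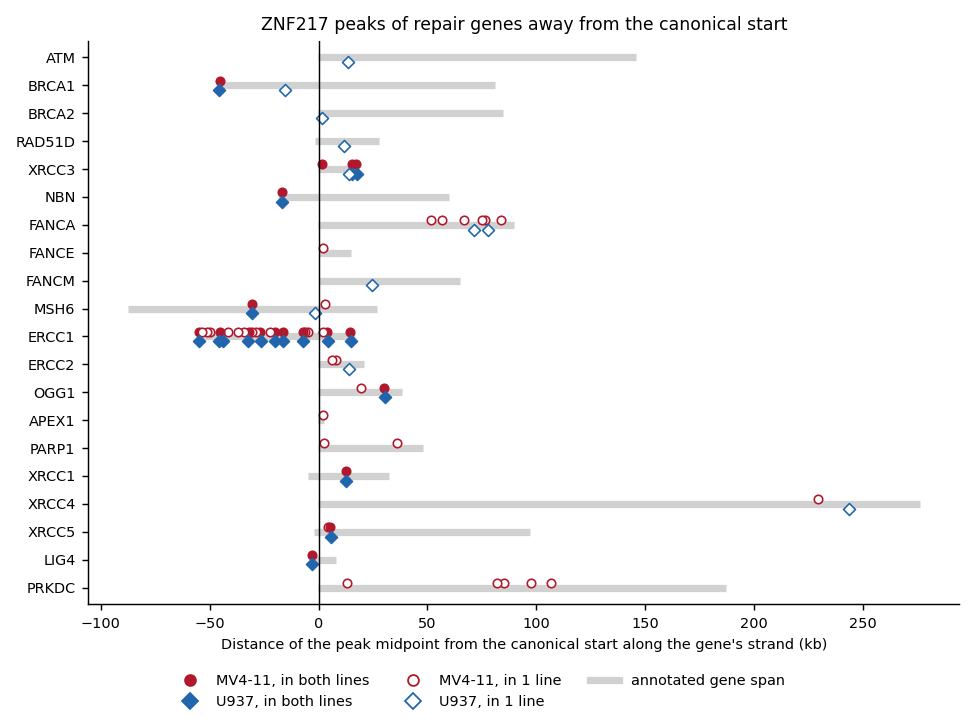
Positions of ZNF217 peaks of repair genes away from the canonical start, as the distance of the peak midpoint from that start along the gene's strand in kb. Red circles are MV4-11 and blue diamonds U937 peaks, filled where the peak overlaps one of the other line, and grey bars are the annotated gene spans. ERCC1 holds a run of peaks upstream of its main start, and those of PRKDC are open red circles only.

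The other members with peaks inside the gene fell into shared and unshared cases. XRCC1 had a shared peak of 1453 and 1610 bp in intron 2, wider in both lines than the peak at its own start. It counted as a gene body peak in MV4-11 and, being closer to an alternative start, as a promoter peak in U937. XRCC5 had a shared peak of 823 and 738 bp in intron 2, the region whose sequence is given above. At XRCC3 shared peaks lay at exon 10 (1423 and 414 bp) and intron 7 (438 and 775 bp). Those in intron 7 were within 1 kb of an annotated KLC1 start. PRKDC had 5 intronic peaks in MV4-11, of 284 to 1294 bp, and none in U937. FANCA had 4 promoter and 3 gene body peaks in MV4-11 and 3 promoter peaks in U937, of which only the pair at the main start overlapped. Of the MV4-11 peaks of members, 4 promoter and 4 gene body peaks were narrower than the U937 minimum of 330 bp.

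The promoter letters of members were compared with those of all promoters. RefSeq windows of 250 bases before to 50 after the start were matched for 35 of 39 members. The median GC content was 64.3%, from 48.0% at FANCM to 78.7% at FANCC, beside 58.7% over all 34961 promoters and 62.3% over the 22132 of protein-coding genes, and the CpG ratio (observed over expected) was 0.871, beside 0.580 and 0.738. CCAAT was found in 54.3% of members, beside 34.6% of all promoters and 34.6% of those of protein-coding genes, and the GC box GGGCGG in 71.4%, beside 45.0% and 56.3%. The ETS letters were held by 28.6% of members against 10.3% and 12.8%, those of NRF1 by 20.0% against 7.50% and 9.56%, and those of E2F by 11.4% against 2.28% and 2.80%. The E2F matches were at XRCC2, FANCD2, XPC and XRCC6. TTTGAA, the cell cycle homology region, was found at 1 member (XRCC1, 2.86%, beside 15.2% and 12.4%) and AAGATGGC, for YY1, at 0 members (beside 2.89% and 3.54%).

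CAGAA, the core of the sequence that ZNF217 is known to prefer, was found in 51.4% of member windows, beside 54.4% of all promoters and 49.5% of those of protein-coding genes. Among members with a divergent neighbour CCAAT was present in 10 of 13 windows, and among the others in 9 of 22. The same split was not made over all protein-coding genes, so whether it is particular to repair genes was not tested. These shares describe letters in a short window and are not evidence of binding, and GC content was not held equal between the groups.

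**Figure D5:**
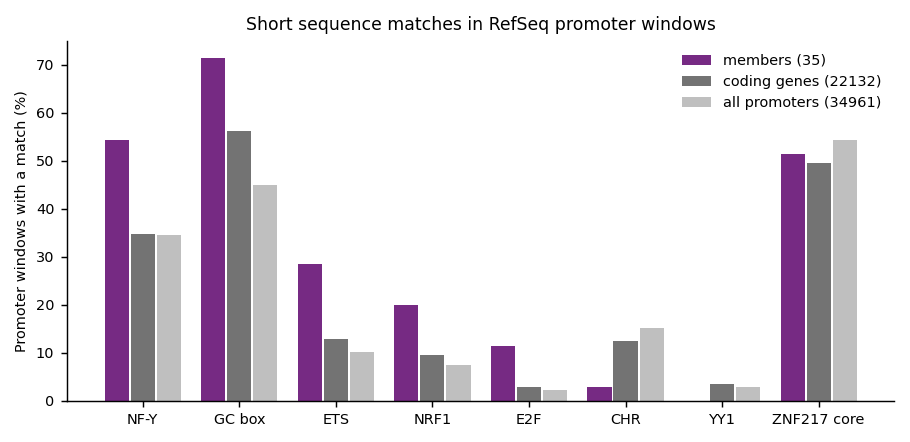
Percent of RefSeq promoter windows with at least 1 match on either strand (vertical axis) to the letters of 7 factors or elements and to the ZNF217 core CAGAA, for repair gene members (purple), protein-coding genes (dark grey) and all promoters (light grey). Members are above both backgrounds for NF-Y, GC box, ETS, NRF1 and E2F, below them for CHR and YY1, and between them for the ZNF217 core.

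To see whether other genes of the same pathways were occupied alike, 46 additional repair genes were counted. Of these, 44 had a promoter peak in MV4-11 (95.7%, beside 59.0% of all protein-coding genes) and 42 in U937 (91.3%, beside 50.5%). A peak in both lines was found at 41, beside 47.4% of all genes. The exceptions were MDC1 (369 bp), RNF8 (651 bp) and POLL (910 bp) in MV4-11 only, TOPBP1 (896 bp) in U937 only, and the nuclease gene FAN1 in neither. The median widest promoter peak in this list was 1067.5 bp in MV4-11 and 959.5 bp in U937, near the 1084 and 979 bp over all occupied genes. For the members the same medians were 995 and 930 bp.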

How the data were processed

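The deposited files gave peak positions (chromosome, start and end) without scores or counts, 1 ZNF217 list for each line. Per the submitters' processing notes the authors aligned reads to hg38 with Bowtie2 2.4.4 and called peaks with MACS3 3.0 in paired-end mode, and whether IgG served as control is not given in the sources used here. Peak width therefore follows depth and the caller as well as occupancy.

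Peaks on chromosomes 1 to 22 and X were joined to GENCODE release 44 with Python 3.11.15, NumPy 2.4.6 and SciPy 1.17.1 (figures, Matplotlib 3.10.9). A promoter peak overlapped 1 kb on each side of any TSS of the gene, a gene body peak overlapped only the rest of its span, and a shared peak had 1 bp or more in common with one of the other line. Sequence names and lengths were checked against the reference, and the overlap code was tested on simulated data.

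All 39 members are named, other repair genes by count with those not occupied in both lines named, along with neighbours at a start or under a named peak. The members, lists and pathways were chosen with earlier results of these data known. No test was made, since each line had 1 library and the labels number no replicates. Alternatives changed the window, the TSS choice, the minimum width, list length, merging and the overlap needed for sharing. The CHEK1 and LIG4 starts in RefSeq lay over 500 bp from the canonical ones, as did that of MSH6.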

Additional observations from a re-analysis of the deposited data

How the results depend on the processing

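No paired analysis was possible because each line had 1 ZNF217 library and the labels give no replicate numbers. Of 64 alternative values, 52 stayed within a limit set for each kind of value, and 12 moved further. The limit was the exact 95% counting interval for shares, the 95% interval of the median from ranked widths, and 1.5-fold for counts. A 1.5-fold limit is wide for occupied members, whose count cannot exceed 39. The tally includes values that could not change, such as 3 U937 values when only the MV4-11 list was trimmed, and occupancy counts, which joining peaks cannot lower. Gene body peaks of members in MV4-11 came to 52 with 1 TSS per gene, since windows at other starts were then counted as gene body, to 20 with peaks of at least 400 bp and to 14 with the widest 21737 MV4-11 peaks, as many as in U937. Chosen after seeing the data, leaving out ERCC1 gave 19 and counting inside canonical transcripts gave 15, and 10 in U937. The shared part of MV4-11 promoter peaks was 82.2% with the widest peaks (73.4% over all genes) and 49.1% with a reciprocal overlap of 50% (45.3%), which gave 64.4% in U937 (62.2%). For gene body peaks it was 60.0% in MV4-11 with peaks of at least 400 bp (30.2% over all genes), 78.6% with the widest peaks (41.5%), and 33.3% in U937 with the reciprocal overlap (32.3%). With peaks of at least 400 bp, 38 members were occupied in MV4-11 (FANCF lost) and 30 in U937 (FANCE, FANCG, FANCL, XPC and ERCC2 lost too), beside 55.8% and 48.5% of all genes. With the widest peaks it was 34 in MV4-11 (XRCC2, FANCF, FANCL, ERCC3 and LIG4 lost), beside 52.0%. Depth and IgG background were not analysed here.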

Other observations

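Some peaks of repair genes ended at exactly the same base in the lists of both lines. Of the 34 members with a peak within 1 kb of the canonical start in both lines, 4 had such an edge (11.8%), at CHEK2 (28741561), MRE11 (94493410), XRCC2 (152675868) and ERCC1 (45424548). Over all protein-coding genes the count was 388 of 8485 overlapping pairs (4.57%). The median distance between the nearest edges of a pair was 48.5 bp in members and 68 bp over all genes, and the cause was not tested.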
